A study of Mus musculus with 12 samples.

Results

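The comparison set the 4 samples with clp in their title against the 4 with tpa in their title, 8 of the 12 samples of the series. Each sample was measured on its own 2-colour Agilent mouse array, with the sample in Cy5 and a common pool in Cy3. A clp array was paired with the tpa array of the same genotype and day, which gave 4 pairs: Eng+/- at day 50, wt at day 50, Eng+/- at day 90 and wt at day 90. Eng+/- (written end+/- in the titles) is a heterozygous genotype of the endoglin gene Eng, and wt is the wild type. What clp and tpa stand for and what the days count from are not given in the sources used here, and neither are the strain, the age or the number of animals or cultures behind a sample. Each combination of treatment, genotype and day is 1 array, so p-values measure the spread that genotype and condition leave between these arrays. All clp arrays lie on 1 slide and all tpa arrays on another, so treatment and slide cannot be told apart in any result.

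The labels describe the material as E14 mouse embryonic stem cells, and the genes listed for such cells were detected in part. Probes for the markers Pou5f1, Zfp42, Esrrb and Nr0b1 were on the array. They were not well above background on the 2 or more arrays needed to be tested. Of all 17 genes listed for embryonic stem cells, 13 were tested and 11 were well above background on all 8 arrays. Genes of hair and skin were bright: 49 of 50 keratin-associated protein genes, 11 of 11 hair shaft keratins, 23 of 23 differentiating epidermis genes, 26 of 26 skeletal muscle genes and 23 of 23 macrophage genes were well above background on all 8 arrays. The median Cy5 signal was 205 to 540 on the clp arrays and 403 to 557 on the tpa arrays, in scanner units, and 72.6% to 77.7% of spots were well above background in Cy5. Among the 8 arrays, clp wt at day 90 stood apart in its reference channel. Its median correlation with the reference channels of the other arrays of the series was 0.9735, against 0.991 to 0.994 for the other 7. Outside the contrast, the wt array of day 50 with no named treatment was as low, at 0.9733. In the log2 ratios over 25332 features, the clp Eng+/- array of day 90 correlated 0.857 to 0.887 with the tpa arrays and 0.749 with clp wt at day 90, and the pair of tpa arrays at day 50 correlated 0.973 with each other.

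Eng, the co-receptor of TGF-beta family ligands on endothelial cells, was the gene that the genotypes differ in. Its log2 ratio of sample over pool, given as Eng+/- then wt in this and every later pair of values, was 0.93 and 1.92 in clp at day 50, -0.49 and -1.13 in tpa at day 50, -0.78 and 0.82 in clp at day 90, and -0.38 and 0.79 in tpa at day 90. The Eng+/- array was thus below its wt partner in 3 of the 4 conditions and above it in tpa at day 50, so Eng in that array went against its label. At day 50 Eng was 2.24 ± 0.46 log2 units higher in clp than in tpa (SE, n = 2 pairs, limma adjusted p = 0.0214), with both clp arrays above both tpa arrays. The value at day 90 was -0.19 ± 0.46 (adjusted p = 0.865), and the mean of both days was 1.02 ± 0.33 (adjusted p = 0.0823), so the mean difference did not pass the threshold.

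A hair follicle passes through growth, regression and rest. During growth, dividing matrix cells at its base turn into the hair shaft, made of hair keratins cross-linked with keratin-associated proteins, and the inner root sheath, made of its own keratins and trichohyalin, while melanocytes of the bulb feed pigment to the shaft. The surrounding dermis holds fibroblasts and resident macrophages, mast cells and dendritic cells, and cells of any type answer interferon with a shared set of antiviral genes.

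In limma, 3517 of 25332 features passed an adjusted p of 0.05 in the mean difference of both days, which is 13.9% of those tested. Of these, 1699 were higher in clp (6.71% of all features) and 1818 lower (7.18%), and 824 differed by 2-fold or more. At day 50 alone 3780 features passed (14.9%), 1995 of them higher in clp (7.88%) and 1785 lower (7.05%). At day 90 no feature passed (0%, smallest adjusted p 0.135, 4200 features at an unadjusted p under 0.05), and the difference between the days passed for 1 feature, Dct (0.00395%). The median difference over all features was 0.05 in the mean, 0.06 at day 50 and 0.03 at day 90. Among the features called at day 50 the median size of the difference was 0.959 log2 units at day 50 and 0.295 at day 90, and 79.4% of them had the same sign at day 90. They were picked by their day 50 values, which favours a smaller size at day 90, so the sizes do not compare the days.

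The design limits these counts. With the 4 pairs as blocks and no treatment-by-day term, no feature passed in the mean (0 called, smallest adjusted p 0.0683, 5333 features at an unadjusted p under 0.05). That fit is not among the 17 other settings over which ranges of list calls are given below. The share of calls higher in clp moved with the scaling: at day 50 it was 52.8%, against 36.5% after median centring and 40.1% from Cy5 alone, and in the mean it was 48.3%, against 37.0% from Cy5 alone.

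The counts moved with each array left out. Without clp Eng+/- at day 90 the mean gave 5523 calls and day 50 gave 5553. Without clp wt at day 90 the counts were 2323 and 5591. Leaving out clp Eng+/- at day 50 gave 1111 and 1175, and leaving out clp wt at day 50 gave 1350 and 900. On the tpa side, the counts were 915 and 2697 without Eng+/- at day 90 and 1272 and 2733 without wt at day 90. They were 2361 and 2186 without Eng+/- at day 50 and 1030 and 670 without wt at day 50.

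**Figure D1:**
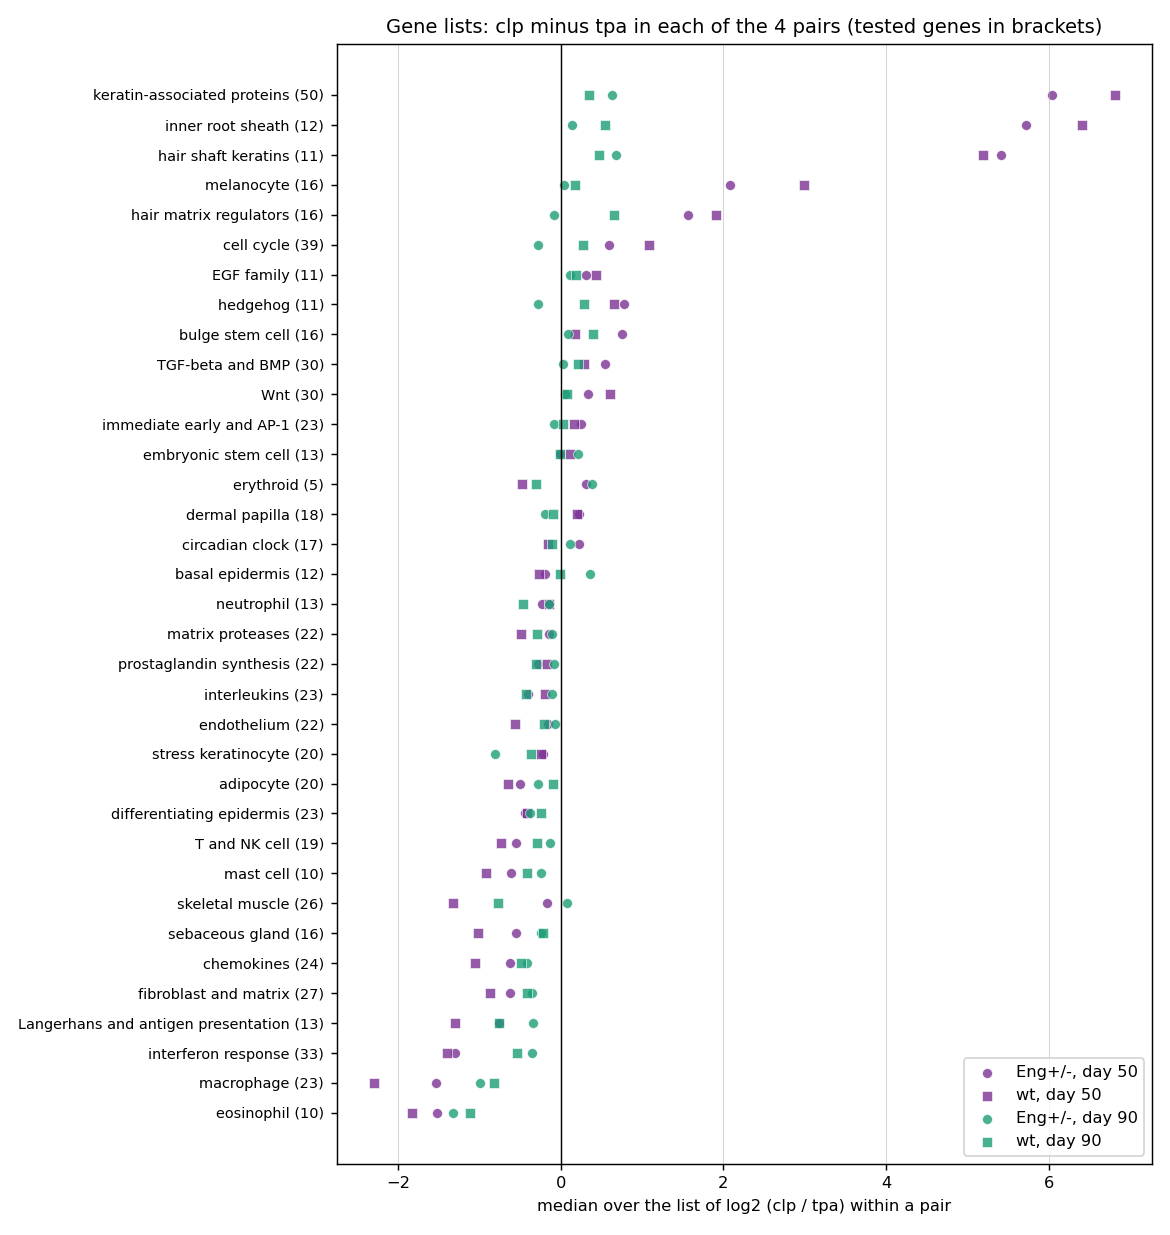
Median log2 difference, clp minus tpa, of 35 gene lists (rows, tested genes in brackets) within each of the 4 pairs; circles are Eng+/- and squares wt, purple is day 50 and green is day 90. Keratin-associated proteins, inner root sheath and hair shaft keratins lie between 5.19 and 6.82 at day 50 and between 0.14 and 0.67 at day 90, whereas eosinophil and macrophage genes lie below -0.8 in every pair.

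The hair shaft genes gave the largest differences, with larger values at day 50 than at day 90. The limma test of the difference between the days passed for none of them (adjusted p = 0.0515 for Krt35, 0.0691 for Krt33a and 0.104 for Krtap1-3). All 50 tested keratin-associated proteins, the cysteine- or glycine-rich proteins that cross-link keratin in the shaft, were called higher in clp at day 50, with a median difference of 6.51 log2 units, and 49 were called in the mean (median 3.52). The remaining gene, Krtap10-10, had a mean difference of 0.88 ± 0.26 (adjusted p = 0.0669). All 11 tested hair shaft keratins were called in both contrasts, with medians of 5.46 at day 50 and 2.93 in the mean. At day 90 the medians were 0.535 and 0.392 and no member passed.

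Krtap1-3 had the largest mean rise with 1 sign in all pairs. Its log2 ratio was 1.38 and 1.57 in clp and -6.19 and -7.09 in tpa at day 50, and -1.34 and 2.02 in clp and -2.86 and -0.002 in tpa at day 90. At day 50 the tpa arrays were thus far below all the others, and at day 90 the Eng+/- array of either treatment was below its wt partner. The difference in Krtap1-3 was 8.12 ± 0.96 at day 50 (adjusted p = 0.00426), 1.77 ± 0.96 at day 90 (adjusted p = 0.399) and 4.94 ± 0.68 in the mean of 4 pairs (adjusted p = 0.00817). The clp and tpa groups overlapped, since tpa wt at day 90 exceeded clp Eng+/- at day 90.

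Krt33a, a type I keratin of the hair cortex, showed the same arrangement, with 1.52 and 1.95 in clp and -5.75 and -8.35 in tpa at day 50, and 0.27 and 1.25 in clp and -1.29 and 0.70 in tpa at day 90. Its spot was saturated on all 4 clp arrays and on 1 tpa array, so its level in clp is a lower limit. Taking that into account, Krt33a was at least 70.3-fold higher in clp at day 50 (adjusted p = 0.00347). Such bounds compare the Cy5 channel after scaling between arrays and are open to dye bias, since no dyes were swapped. Saturation on both clp arrays of day 50 affected 17 keratin-associated proteins, whose bounds ran from 6.27-fold to 161-fold, and 4 hair shaft keratins, from 15.8-fold to 70.3-fold. The 161-fold bound was that of Krtap5-5 by its brightest probe, and its 4 probes ranged from -0.03 to 3.97 in the mean. Krt35, a cortex and matrix keratin, had differences of 5.91 ± 0.38 at day 50 and -0.04 ± 0.38 at day 90. It was saturated on 2 clp arrays, 1 of them of day 50, and on 1 tpa array, so neither value is exact.

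Of the other 8 largest mean rises in the same direction in all pairs, 7 were keratin-associated proteins (Krtap9-3, Krtap16-1, Krtap1-5, Krtap21-1, Krtap14, Krtap17-1 and Krtap6-2, with mean differences of 4.10 to 4.54, each saturated on 2 or 3 clp arrays) and the other was Krt26, an inner root sheath keratin, at 4.06. Over the list, 35 of 50 keratin-associated proteins were higher in clp in 4 of 4 pairs, against 16.9% of all features, and none had all clp arrays above all tpa arrays, against 8.17% of all features. Over 17 other settings, the number of keratin-associated proteins called in the mean ranged from 18, without clp Eng+/- at day 50, to 50. The fit with pairs as blocks, not among the 17, called 0. The number of hair shaft keratins called fell to 4 with all 12 arrays in the fit. Several keratin-associated proteins are near-identical copies that probes may not separate.

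The inner root sheath followed the shaft. Of 12 tested genes 10 were called higher in the mean (median 3.37), with a median of 6.33 at day 50 and 0.393 at day 90. The type I keratin Krt27 had log2 ratios of 2.08 and 1.87 in clp and -4.86 and -6.34 in tpa at day 50, and of -0.13 and 1.24 in clp and 0.50 and 1.02 in tpa at day 90. It was saturated on both clp arrays of day 50, and its rise there was at least 49.7-fold (adjusted p = 0.00281). At day 90 Krt27 was saturated on both tpa arrays and on 1 clp array, so its values there give no exact difference. The trichohyalin-like gene Tchhl1 was saturated on both clp arrays of day 50 and at least 20.7-fold higher there (adjusted p = 0.00316). Krt74 and the transglutaminase Tgm3 were not called, with mean differences of 0.19 ± 0.11 and 0.14 ± 0.13. With all 12 arrays in the fit, 0 inner root sheath genes were called in the mean and 7 at day 50.

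**Figure D2:**
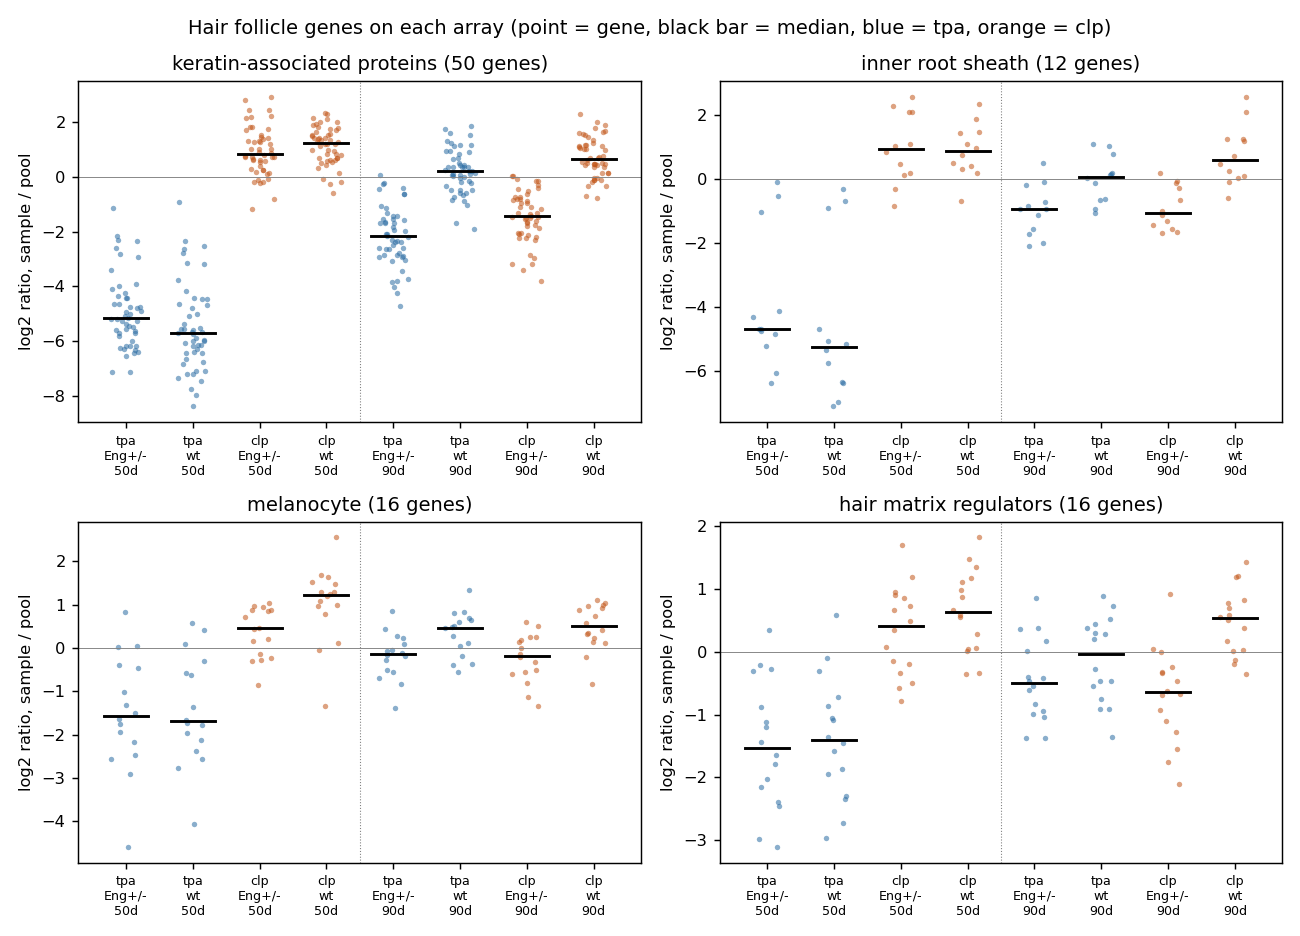
Log2 ratio of sample over pool for each gene (points) of 4 hair follicle lists on the 8 arrays, day 50 left and day 90 right of the dotted line, with black bars for the median; blue is tpa and orange is clp. The tpa arrays of day 50 have list medians of -5.16 and -5.71 for keratin-associated proteins, against 0.83 and 1.25 in clp, and at day 90 the Eng+/- arrays of both treatments lie below the wt arrays.

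The transcription factors that run the hair matrix were higher in clp at day 50 as well. Of 16 tested regulators, 11 were called in the mean and 15 at day 50, all higher, with medians of 1.01 in the mean, 1.73 at day 50 and 0.146 at day 90. Msx2, a homeobox factor of matrix cells, had log2 ratios of 0.90 and 1.12 in clp and -2.15 and -1.95 in tpa at day 50, and of -0.33 and 0.58 in clp and -0.46 and 0.44 in tpa at day 90. The clp-tpa gap at day 50 was wider than any gap between genotypes, and at day 90 the treatments overlapped. Its difference was 3.06 ± 0.22 at day 50 (adjusted p = 0.00281) and 0.13 ± 0.22 at day 90 (adjusted p = 0.794). At day 50 Hoxc13, which switches on hair keratin genes, differed by 3.30 ± 0.44, and Foxn1, the factor lost in nude mice, by 2.31 ± 0.33. Dlx2 differed by 3.88 ± 0.41 and Lef1, the partner of beta-catenin, by 2.58 ± 0.25. Only 3 regulators were called in the mean without clp Eng+/- at day 50, and 4 at day 50 without tpa wt at day 50.

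Signals that act on the follicle gave smaller and mixed differences. Of 30 tested Wnt pathway genes 12 were called higher and 3 lower in the mean (median 0.252), against 6.71% and 7.18% of all features. The ligands Wnt5a, Wnt11 and Wnt10b differed by 1.48, 1.51 and 0.87 at day 50, where each passed. The secreted inhibitor Wif1 was 2.16 ± 0.36 higher at day 50 (adjusted p = 0.0108) and differed by 0.02 at day 90, whereas the inhibitors Sfrp4 and Dkk2 were lower in the mean, by -1.10 and -0.86. Among 11 hedgehog genes 5 were called higher and 1, the co-receptor Cdon, lower in the mean. With all 12 arrays in the fit 0 hedgehog genes were called higher. Cdon differed by -0.73 by its brightest probe and by 0.18 by its other probe. Gli1, the transcriptional read-out of the pathway, had log2 ratios of 0.27 and 0.62 in clp and -1.47 and -1.33 in tpa at day 50, and of 0.55 and 0.69 in clp and 0.04 and -0.20 in tpa at day 90. All clp values of Gli1 were above all tpa values, and its mean difference was 1.27 ± 0.12 (adjusted p = 0.00402).

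The ligand Shh changed sides between the days. Its log2 ratio was 1.25 and 1.71 in clp and -0.21 and -0.15 in tpa at day 50, and 0.49 and 0.46 in clp and 1.23 and 1.19 in tpa at day 90. Each treatment's pair of arrays was close together, clp lying above tpa at day 50 and below it at day 90. The difference at day 50 was 1.66 ± 0.16 (adjusted p = 0.00313), with tpa not well above background, so that the tpa level there has only a bound. The value at day 90 was -0.74 ± 0.16 (adjusted p = 0.174), and the difference between the days was 2.40 (adjusted p = 0.0515), neither of which passed.

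In the TGF-beta and BMP list 7 of 30 genes were called higher and 1 lower in the mean (median 0.255), against 6.71% and 7.18% of all features. Id1, a direct target of BMP signalling, had log2 ratios of 1.06 and 1.32 in clp and -0.43 and -0.20 in tpa at day 50, and of 0.78 and 1.31 in clp and 0.12 and 0.48 in tpa at day 90. All clp arrays were above all tpa arrays at either day. The difference was 1.505 ± 0.13 at day 50 (adjusted p = 0.00281), 0.74 ± 0.13 at day 90 (adjusted p = 0.174) and 1.12 ± 0.09 in the mean (adjusted p = 0.00386). The inhibitory Smads Smad7 and Smad6 were higher at day 50, by 2.11 ± 0.34 and 1.73. The receptor Tgfbr2 was lower in the mean by its brightest probe, at -1.23 ± 0.16 (adjusted p = 0.00745), whereas its other probe gave 0.01.

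Melanocyte genes rose with the shaft genes. Of 16 tested, 12 were called higher in the mean and none lower, with a median of 1.34 in the mean, 2.54 at day 50 and 0.0956 at day 90. Tyrp1, a melanosome enzyme of the tyrosinase family, had log2 ratios of -0.27 and 1.64 in clp and -4.60 and -4.06 in tpa at day 50, and of -1.13 and 0.74 in clp and -1.38 and -0.18 in tpa at day 90. At day 50 the clp and tpa arrays were apart and at day 90 they overlapped. The difference was 5.01 ± 0.34 at day 50 (adjusted p = 0.00281) and 0.58 ± 0.34 at day 90 (adjusted p = 0.428). Tyrp1 was saturated on 1 clp array of day 50. Dct, the dopachrome tautomerase of eumelanin synthesis, had 0.94 and 1.25 in clp and -2.92 and -2.37 in tpa at day 50, and 0.24 and 1.11 in clp and 0.28 and 0.82 in tpa at day 90. Its difference was 3.75 ± 0.16 at day 50 and 0.13 ± 0.16 at day 90, and Dct was the feature whose difference between the days, 3.61 ± 0.22, passed (adjusted p = 0.0179). Its spot was saturated on 2 clp arrays, 1 of them of day 50, and on 1 tpa array of day 90. Saturated values are lower limits, so these differences are not exact. Genes that mark the lineage rather than pigment synthesis differed less, Mitf by 0.72 and Kit by 0.88 at day 50, and Sox10 (0.31) and Ednrb (0.32) did not pass. In such tissue samples fewer cells of a type and less RNA per cell cannot be told apart.

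Proliferation genes were modestly higher in clp. Of 39 tested cell cycle genes 23 were called higher at day 50 (median 0.858) and 10 in the mean (median 0.393), none were lower, and the median at day 90 was -0.0102. Mki67, the Ki-67 antigen of dividing cells, had log2 ratios of 1.09 and 2.13 in clp and 0.18 and 0.21 in tpa at day 50, and of 0.73 and 1.75 in clp and 1.01 and 1.19 in tpa at day 90. Both clp arrays were above both tpa arrays at day 50 and straddled them at day 90. Its difference was 1.42 ± 0.28 at day 50 (adjusted p = 0.0186) and 0.14 ± 0.28 at day 90 (adjusted p = 0.83). The topoisomerase Top2a differed by 1.05 ± 0.14 and the ribonucleotide reductase subunit Rrm2 by 1.35 ± 0.21 at day 50. The calls were fragile, with 0 in the mean when all 12 arrays entered the fit and 0 at day 50 without tpa wt at day 50.

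The promoters of the cell cycle genes were read from RefSeq (GRCm38.p6), over the 250 bases before the start, on both strands. The letters TTTGAA of the cell cycle genes homology region occurred in 7 of the 17 genes called at day 50 that had an entry (41.2%), in 1 of 15 not called (6.67%) and in 14.0% of all tested genes. CCAAT occurred in 14 of the 17 (82.4%), in 9 of the 15 (60.0%) and in 39.4% of all tested genes. These matches describe the letters in the window and nothing about a factor.

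Stem cell genes of the bulge differed little as a list. Of 16 tested, 4 were called higher in the mean (Gli1, Tbx1, Lgr5 and Sox9), with a median of 0.267. Lgr5, a receptor for R-spondins, had log2 ratios of 0.34 and 0.38 in clp and -1.002 and -0.87 in tpa at day 50, and of 0.10 and 0.73 in clp and -0.34 and -0.35 in tpa at day 90. Its clp arrays were above its tpa arrays throughout, with a mean difference of 1.03 ± 0.13 (adjusted p = 0.00608). The basal layer keratins Krt5 and Krt14 were saturated in both treatments and give no comparison. Of 18 dermal papilla genes 3 were called higher and 1 lower in the mean, against 6.71% and 7.18% of all features.

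A second set of genes was lower in clp, among them those of macrophages. Of 23 tested macrophage genes 18 were called lower in the mean and 1 higher, with medians of -1.43 in the mean, -1.92 at day 50 and -1.03 at day 90. In 18 of the 23 all clp arrays were below all tpa arrays, against 7.99% of all features. The list medians in tpa were 0.00 to 0.82 and in clp -1.20 to -0.34. At day 90 none of these genes passed alone, since no feature did.

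Ctss, the lysosomal protease cathepsin S of antigen-presenting cells, had log2 ratios of -0.99 and -2.22 in clp and 1.33 and 1.62 in tpa at day 50, and of -0.49 and -0.42 in clp and 1.14 and 1.53 in tpa at day 90. All clp arrays were below all tpa arrays. Ctss was saturated on 3 of the 4 tpa arrays, both of day 50 among them, where it was at least 6.74-fold lower in clp (adjusted p = 0.00421), and it was called in the mean (adjusted p = 0.00447). Mrc1, the mannose receptor of resident macrophages, had -0.31 and -0.97 in clp against 1.72 and 1.71 in tpa at day 50, and -0.32 and 0.15 against 1.58 and 1.35 at day 90. Its mean difference was -1.95 ± 0.17 (adjusted p = 0.00399), again without overlap. Complement genes made by macrophages followed, C1qc at -1.78, C1qa at -1.47 and C1qb at -1.24 in the mean.

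Csf1r, the receptor for the macrophage growth factor, was called lower in the mean by its brightest probe (adjusted p = 0.00412), while its probes ranged from -1.90 to 0.40. That probe was saturated on both tpa arrays of day 50, where Csf1r was at least 4.08-fold lower in clp (adjusted p = 0.00354). Other large falls were Cd209f (-2.24 ± 0.23), a lectin of dermal macrophages, and Ly86 (-2.38 ± 0.21), the partner of a Toll-like receptor homologue. Plac8, a gene of myeloid cells, differed by -2.37 in the mean and -3.21 at day 50. F13a1, the coagulation factor subunit of resident macrophages, gave -2.17 by 1 probe and 0.01 by the other. The single gene of the list higher in clp was Arg1 (0.58 ± 0.13, adjusted p = 0.0306), the arginase of alternatively activated macrophages. Over 17 other settings the number of macrophage genes called lower in the mean ranged from 11, without tpa Eng+/- at day 90, to 21. With pairs as blocks, which is not among the 17, it was 0.

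**Figure D3:**
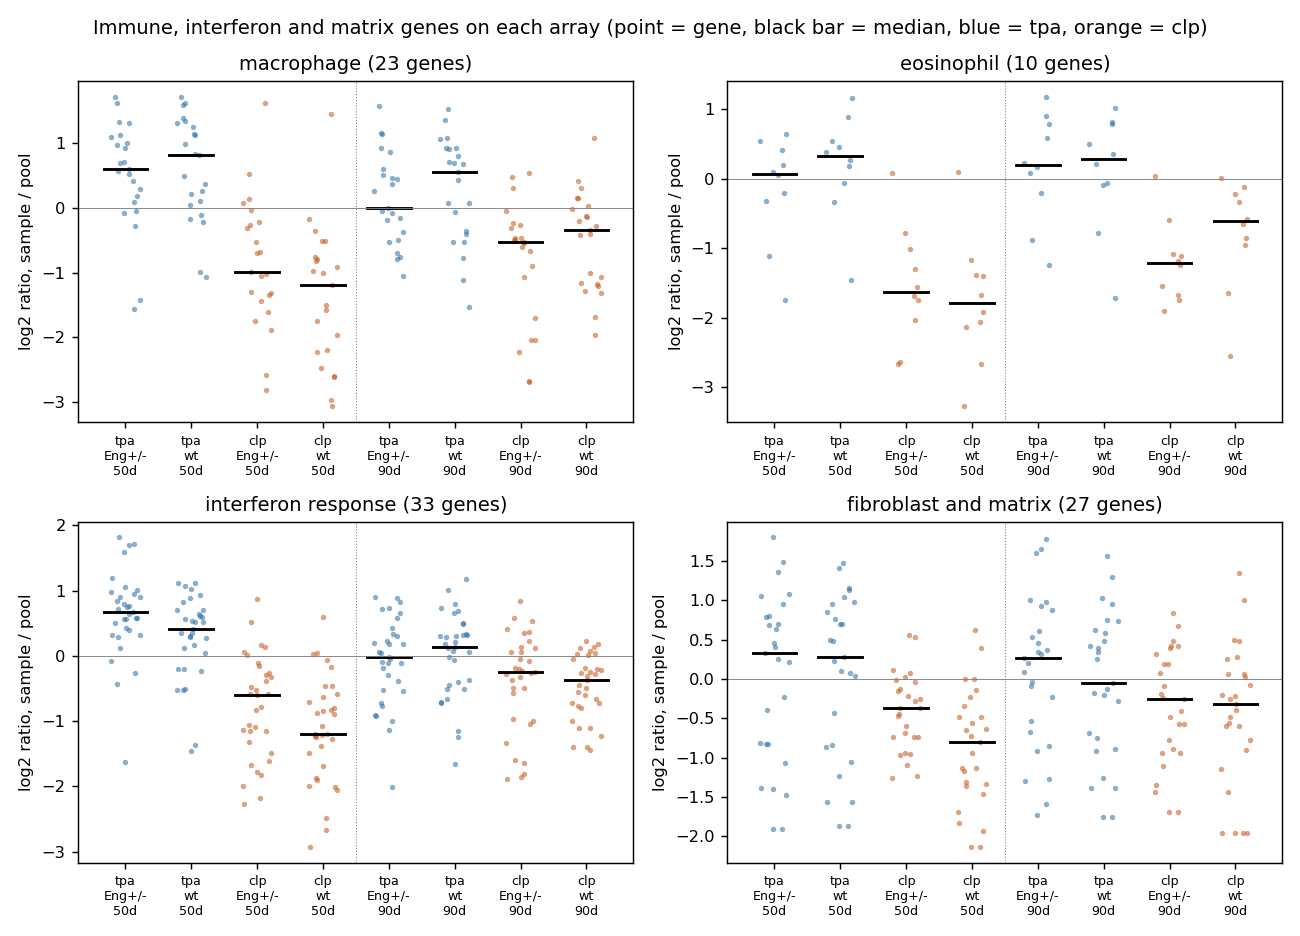
Log2 ratio of sample over pool for each gene (points) of the macrophage, eosinophil, interferon response and fibroblast and matrix lists on the 8 arrays, day 50 left and day 90 right of the dotted line, with black bars for the median; blue is tpa and orange is clp. Within each day the clp medians of macrophage genes, -1.20 to -0.34, lie below the tpa medians, 0.00 to 0.82.

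Genes of eosinophil granule ribonucleases were lower in clp. Of 10 tested eosinophil genes 8 were called lower in the mean and none higher, with medians of -1.66 in the mean, -1.67 at day 50 and -1.57 at day 90. Without tpa Eng+/- at day 90, 4 were called. Ear1 had log2 ratios of -1.75 and -1.91 in clp and 0.65 and 1.16 in tpa at day 50, and of -1.12 and -0.57 in clp and 0.79 and 1.02 in tpa at day 90. No clp array reached any tpa array, and the mean difference was -2.24 ± 0.14 (adjusted p = 0.00386). Ear2 (-2.41 ± 0.23) and Ear10 (-2.14 ± 0.17) differed alike, but these genes are close paralogs whose probes may share targets. The defining granule proteins gave less, with Prg2 at -0.35 and not called, Epx not tested, and the eosinophil receptor genes Ccr3 and Siglecf at -0.89 and -0.85 in the mean, both called.

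Genes of other immune cells were lower in part. Of 13 genes of Langerhans cells and antigen presentation 11 were called lower in the mean (median -0.673), and 3 without tpa Eng+/- at day 90, with all 13 lower in clp in 4 of 4 pairs, against 13.3% of all features. H2-DMa, which loads peptides onto class II molecules, had log2 ratios of 0.23 and -0.14 in clp and 1.51 and 1.62 in tpa at day 50, and of 0.26 and 0.25 in clp and 1.25 and 1.10 in tpa at day 90. The groups did not overlap, and the mean difference was -1.22 ± 0.11 (adjusted p = 0.0039). The class II chain H2-Aa differed by -1.59 ± 0.24 and the Langerhans lectin Cd207 by -0.63 in the mean.

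Of 19 T and NK cell genes 10 were called lower in the mean (median -0.391), and 3 without clp Eng+/- at day 50, led by the granzyme Gzma at -1.35 ± 0.12 (adjusted p = 0.0039), with the receptor subunits Cd3e (-0.39), Cd8a (-0.29) and Cd4 (0.16) not called. Gzmc, a granzyme outside the list, had -1.83 and -1.99 in clp and -0.44 and -0.25 in tpa at day 50, and -1.27 and -0.88 in clp and 0.65 and 0.59 in tpa at day 90. All its clp arrays were below all its tpa arrays. Of 10 mast cell genes 5 were called lower (median -0.546), and 2 without tpa wt at day 50, the carboxypeptidase Cpa3 by -1.59 ± 0.15 (adjusted p = 0.0042). Of 13 neutrophil genes 4 were called lower, and the antimicrobial genes Camp (-0.02) and Ltf (-0.15) were not.

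Interferon-induced genes were lower in clp, with larger values at day 50, though the difference between the days passed for none of them. Of 33 tested, 28 were called lower in the mean and 28 at day 50, none higher, with medians of -0.877 in the mean, -1.41 at day 50 and -0.418 at day 90. In 21 of the 33 all clp arrays were below all tpa arrays, against 7.99% of all features. Rtp4, an interferon-induced chaperone, had log2 ratios of -1.61 and -2.01 in clp and 1.02 and 0.70 in tpa at day 50, and of -0.99 and -0.72 in clp and -0.11 and 0.33 in tpa at day 90. In clp it was lowest at day 50, and in tpa it was highest at day 50, so the distance between the treatments was wider at that day. The difference was -2.67 ± 0.23 at day 50 (adjusted p = 0.00281), -0.97 ± 0.23 at day 90 (adjusted p = 0.174) and -1.82 ± 0.16 in the mean (adjusted p = 0.00402).

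Among the interferon genes, the guanylate-binding protein Gbp3 had log2 ratios of -1.13 and -1.49 in clp and 0.97 and 0.70 in tpa at day 50, and of -0.28 and -0.71 in clp and 0.20 and 0.30 in tpa at day 90. Its mean difference was -1.45 ± 0.12 (adjusted p = 0.00386). The tethering protein Bst2 (-1.66 ± 0.16), the oligoadenylate synthetase-like Oasl1 (-1.82 ± 0.25) and the GTPases Igtp (-1.17 ± 0.10) and Irgm1 (-0.90 ± 0.09) also passed. Of the transcription factors of the pathway, Irf7 differed by -0.57, Stat2 by -0.61 and Irf9 by -0.46 in the mean, all called. The lowest number of interferon genes called in the mean under 17 other settings was 13, without clp wt at day 50, and the list medians ranged from -1.28 to -0.742. Outside the 17, the fit with pairs as blocks called 0.

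The interferon-stimulated response element, the site that factors activated by interferon bind, was searched as GAAA, 2 free bases and GAAA again, on both strands. Of the 28 interferon genes called lower at day 50, 22 had a RefSeq promoter entry, and 11 of those (50.0%) held the letters on either strand within 250 bases before the start, as did 2 of 3 not called. The share was 3.38% over 13581 tested genes with an entry, 7.07% over 1145 genes of any list or none that were lower in clp at day 50, and 2.8% over 1213 that were higher. The windows of 6 of the 11 genes, those with the smallest p in the mean, are printed to show where the letters stand. They are written 5′ to 3′ on the gene's strand with matches in capitals, begin 40 bases before the first match and end 40 bases past the last or at the start site. In GRCm38.p6 they lie at chr3:142559959-142560043 (Gbp3, plus strand), chr11:58199482-58199555 (Igtp, plus), chr8:71537547-71537642 (Bst2, minus), chr11:48871421-48871490 (Irgm1, minus), chr3:142620564-142620653 (Gbp2, plus) and chr5:120907526-120907585 (Oas1a, minus).
Gbp3: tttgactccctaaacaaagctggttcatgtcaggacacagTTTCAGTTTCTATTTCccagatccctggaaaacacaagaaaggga
Igtp: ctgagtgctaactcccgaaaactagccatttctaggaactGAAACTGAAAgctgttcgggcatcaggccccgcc
Bst2: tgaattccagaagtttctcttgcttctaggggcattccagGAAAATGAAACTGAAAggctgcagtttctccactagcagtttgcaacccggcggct
Irgm1: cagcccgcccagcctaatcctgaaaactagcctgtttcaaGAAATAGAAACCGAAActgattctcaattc
Gbp2: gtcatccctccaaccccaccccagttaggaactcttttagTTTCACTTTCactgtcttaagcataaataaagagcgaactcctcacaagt
Oas1a: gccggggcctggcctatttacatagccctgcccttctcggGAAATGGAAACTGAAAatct
In Gbp3, Bst2, Irgm1 and Oas1a 2 matches overlap. A match is a description of the letters and was not tested for activity.

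**Figure D4:**
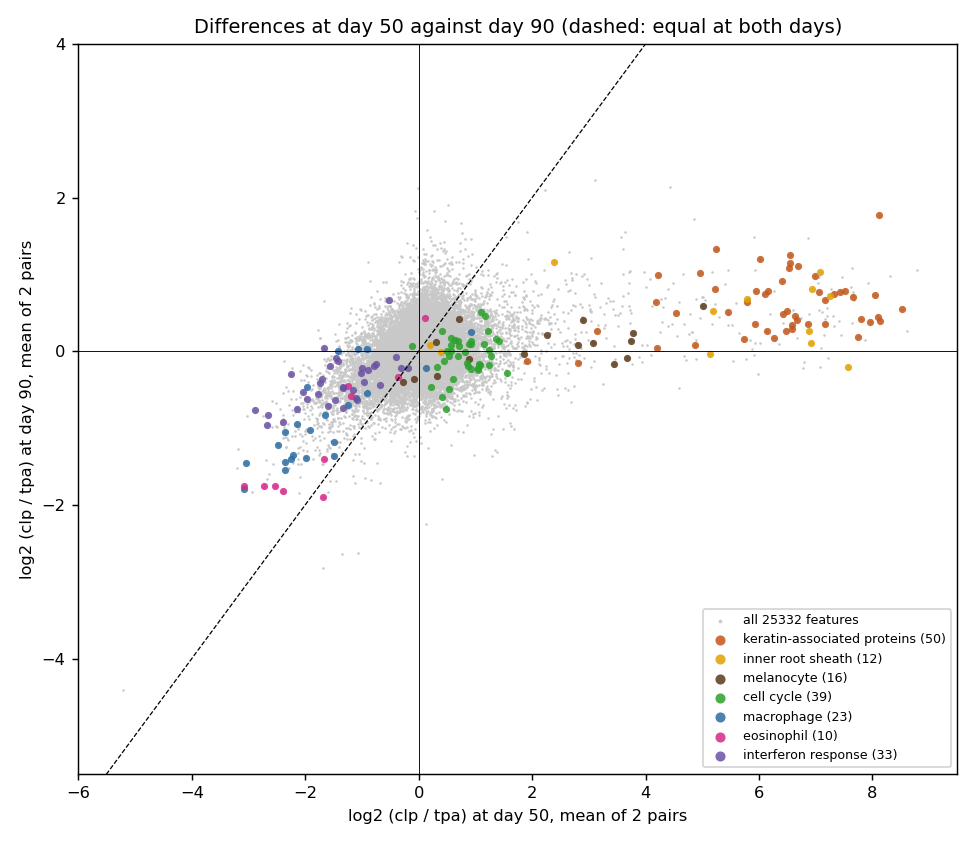
Log2 difference, clp minus tpa, of every feature at day 50 (horizontal) against day 90 (vertical), each the mean of 2 pairs, with 7 gene lists in colour and a dashed line where both days are equal. Keratin-associated proteins reach 8.52 at day 50 and no more than 1.77 at day 90, whereas the eosinophil ribonucleases Ear1 (-2.73 and -1.75) and Ear2 (-3.08 and -1.75) lie at the lower left.

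Chemokines and interleukins were lower in clp. Of 24 tested chemokines 15 were called lower in the mean, against 7.18% of all features, and none higher (median -0.655). In 16 of the 24 all clp arrays were below all tpa arrays, against 7.99% of all features. Ccl6, a myeloid chemokine, had log2 ratios of -1.85 and -1.93 in clp and 0.84 and 0.77 in tpa at day 50, and of -2.23 and -0.55 in clp and 0.01 and 0.05 in tpa at day 90. It was low in every clp array, and its mean difference was -2.06 ± 0.30 (adjusted p = 0.00912). The monocyte attractant Ccl8, saturated on all 4 tpa arrays, was at least 2.54-fold lower in the mean (adjusted p = 0.0169). The monocyte attractant Ccl2 (-1.10 ± 0.13) and the eosinophil attractants Ccl24 (-1.40 ± 0.14) and Ccl11 (-0.82) passed as well. Without clp wt at day 50, 5 chemokines were called.

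Of 23 interleukins 9 were called lower in the mean, and 0 without tpa wt at day 50, with medians from -0.765 to -0.215 over 17 other settings. The epidermal cytokine Il1f6 differed by -1.69 ± 0.38 (adjusted p = 0.0296) and the alarmin Il33 by -1.05 ± 0.25 (adjusted p = 0.0355). Tnf (-0.21), Il10 (-0.23) and Il6 (-1.33) did not pass. Il6 was uncertain rather than close to 0, with the widest spread of the list.

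Fibroblast and matrix genes were lower in clp in part. Of 27 tested, 15 were called lower in the mean, against 7.18% of all features, and none higher (median -0.669). In 13 of the 27 all clp arrays were below all tpa arrays, against 7.99% of all features. In 1, the matrix glycoprotein Tnc (0.60, not called), they were above, against 8.17% of all features. Without tpa wt at day 50, 7 were called lower. Ogn, the leucine-rich proteoglycan osteoglycin, had log2 ratios of -0.37 and -0.64 in clp and 1.07 and 0.98 in tpa at day 50, and of -0.26 and -0.08 in clp and 0.88 and 0.73 in tpa at day 90. The groups were apart at either day, with a mean difference of -1.25 ± 0.10 (adjusted p = 0.00386). The microfibril gene Fbn1 differed by -1.34 ± 0.15 and the fibroblast receptor Pdgfra by -0.95 in the mean. The fibrillar collagens Col1a1, Col1a2 and Col3a1 were saturated on all 8 arrays and give no comparison. Lum, saturated on all 4 tpa arrays, was at least 1.85-fold lower in clp in the mean (adjusted p = 0.00464).

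Matrix proteases and their inhibitors gave 6 of 22 called lower, among them Mmp13 (-1.21 ± 0.24), a collagenase, Mmp9 (-0.68 ± 0.10), a gelatinase, and Adam8 (-1.44 ± 0.20). Of 22 endothelial genes 6 were called lower, and 0 without clp wt at day 50 (medians -0.543 to -0.15 over 17 other settings), led in size by the lymphatic receptor Lyve1 at -1.25 ± 0.31, while Pecam1 (-0.08) and Kdr (0.12) were not called.

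Genes of lipid-making cells were lower in part. Of 16 sebaceous gland genes 9 were called lower and 1, the shared factor Prdm1, higher in the mean (median -0.647), and 2 were called lower without tpa wt at day 50. Awat1, an enzyme of sebum wax synthesis, had log2 ratios of -0.60 and -1.17 in clp and 0.79 and 0.92 in tpa at day 50, and of -0.02 and -0.12 in clp and 1.30 and 1.19 in tpa at day 90. All clp arrays were below all tpa arrays, and the mean difference was -1.53 ± 0.12 (adjusted p = 0.00386). Cidea, a lipid droplet gene saturated on all 4 tpa arrays, was at least 2.27-fold lower in clp in the mean (adjusted p = 0.0148). Of 20 adipocyte genes 5 were called lower, among them the adipokines Retn (-0.91 ± 0.13) and Adipoq (-0.73 ± 0.16), while Lep (-0.15) was not called and Fabp4 was saturated on all 8 arrays.

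Skeletal muscle genes gave 3 called of 26 in the mean, all lower, against 7.18% of all features. With all 12 arrays in the fit 0 were called lower. Of the 26 genes 15 were saturated on at least 1 array. Their list medians were 0.70 and -0.68 in clp at day 90 and 0.74 and 0.15 in tpa at day 90, so the Eng+/- and wt arrays of clp lay apart. At day 50 they were 0.37 and -0.78 in clp and 0.51 and 0.54 in tpa. Muscle genes thus differed between the Eng+/- and wt arrays within clp. Each is 1 array per day, so genotype and sample cannot be told apart. The part of muscle genes in the differences of other genes was not tested.

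Of 20 stress keratinocyte genes 7 were called lower in the mean and 1, Krt17, higher, though Krt17 was saturated on all 8 arrays. The list medians were -0.242 at day 50 and -0.688 at day 90, and 1 gene was called lower in the mean with all 12 arrays in the fit. Csta3, a stefin-type protease inhibitor outside the list, had log2 ratios of -3.17 and -2.33 in clp and -1.31 and -0.82 in tpa at day 50, and of -2.54 and -2.44 in clp and 0.39 and 0.28 in tpa at day 90. The tpa arrays of day 90 were the high ones and no clp array reached any tpa array. Its difference was -2.83 ± 0.27 at day 90 (adjusted p = 0.135), the largest fall of that day among the genes of smallest p, and -2.26 ± 0.19 in the mean (adjusted p = 0.00386). The related Stfa1 was called in the mean (adjusted p = 0.00858). It was saturated on both tpa arrays of day 90, where it was at least 4.87-fold lower in clp and did not pass (adjusted p = 0.135).

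Krt6b, a keratin of the companion layer and wounded epidermis, differed by -1.997 ± 0.24 in the mean by its brightest probe and by 0.50 by the other probe, and Krt6a was not called (0.62). Of 23 genes of differentiating epidermis 4 were called lower in the mean, against 7.18% of all features. Krt1, the keratin of the first suprabasal layers, had log2 ratios of -0.81 and -0.88 in clp and 0.21 and 0.34 in tpa at day 50, and of -0.56 and -1.49 in clp and 1.204 and 0.18 in tpa at day 90. All clp arrays were below all tpa arrays, with a mean difference of -1.42 ± 0.21 (adjusted p = 0.00952). Its partner Krt10 was saturated on all 8 arrays.

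Enzymes and receptors of the prostaglandin pathway split by member, with 4 called higher and 9 lower of 22 tested in the mean. The secreted phospholipases Pla2g10 and Pla2g2e, both known from the hair follicle, were higher by 3.94 ± 0.42 and 3.21 ± 0.48 at day 50 (adjusted p = 0.00356 and 0.00758). Pla2g10 had log2 ratios of 1.47 and 2.34 in clp and -2.10 and -1.97 in tpa at day 50, and of -0.27 and 1.55 in clp and -0.47 and 1.58 in tpa at day 90, so the treatments overlapped at day 90. Ptger2, a receptor for prostaglandin E2, was lower by -0.92 ± 0.12 at day 50 and -0.82 ± 0.12 at day 90, and its mean difference passed (-0.87 ± 0.09, adjusted p = 0.0042). Ptgs2, the inducible cyclooxygenase, was lower in the mean at -0.58, while Ptgs1 (-0.87) did not pass.

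Ligands and receptor of the EGF family were called higher for 4 of 11 genes in the mean, against 6.71% of all features, and none lower. From the authors' processed signals 0 were called higher. Areg (1.17 ± 0.26, adjusted p = 0.0303) and Tgfa (0.77 ± 0.15, adjusted p = 0.02) are ligands of the receptor Egfr, whose probes ranged from -0.11 to 0.54. Among 23 immediate early genes Egr1 (0.86 ± 0.20), Dusp6 (0.79 ± 0.15) and Fosl2 (0.55 ± 0.11) were called higher and Fos (-0.72 ± 0.17) lower in the mean. Over all features 6.71% were called higher and 7.18% lower.

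Cyp2g1, a cytochrome P450 known from the olfactory mucosa, had the largest fall in the mean. Its log2 ratio was -5.91 and -3.57 in clp and 0.40 and 0.56 in tpa at day 50, and -5.82 and -1.24 in clp and 1.16 and 0.60 in tpa at day 90. All clp arrays were below all tpa arrays, and within clp the Eng+/- array was below the wt array at either day. The difference in Cyp2g1 was -5.22 ± 1.08 at day 50 (adjusted p = 0.0217), -4.41 ± 1.08 at day 90 (adjusted p = 0.174) and -4.81 ± 0.77 in the mean (adjusted p = 0.0112). At day 50 the call was lost when any 1 of the 4 arrays of that day was left out (adjusted p = 0.0739 to 0.146). Akr1c14, a hydroxysteroid dehydrogenase, had -0.96 and -1.12 in clp and 2.17 and 2.13 in tpa at day 50, and -0.89 and 0.69 in clp and 1.67 and 0.67 in tpa at day 90. It differed by -3.19 ± 0.51 at day 50 (adjusted p = 0.00912), and at day 90 the wt arrays of both treatments were level.

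**Figure D5:**
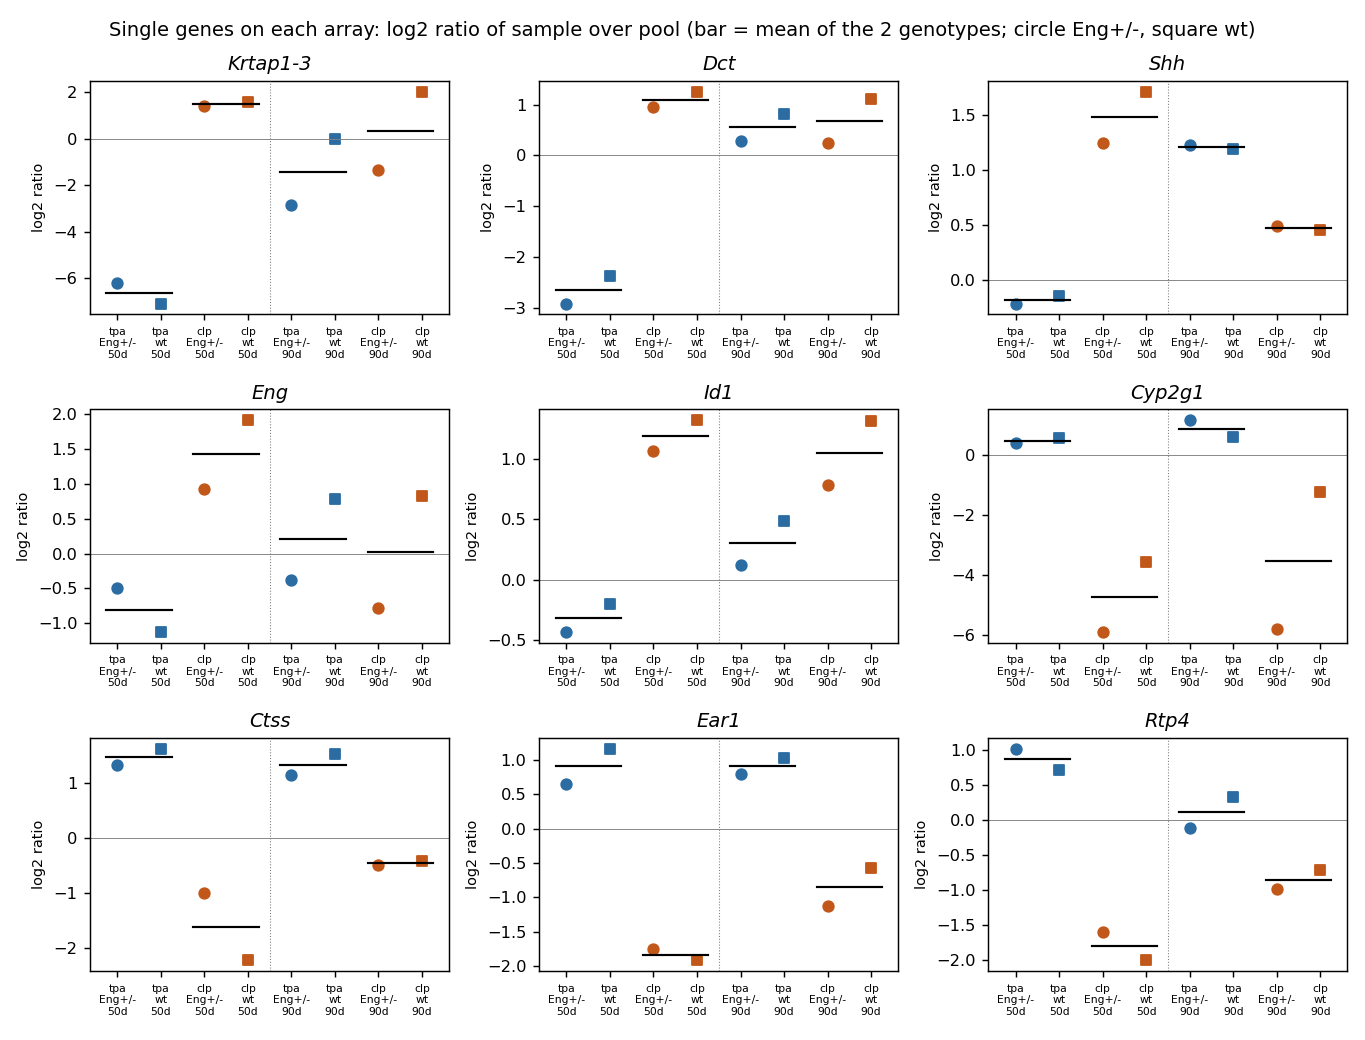
Log2 ratio of sample over pool of 9 single genes on the 8 arrays, day 50 left and day 90 right of the dotted line; circles are Eng+/-, squares wt, blue tpa and orange clp, and bars are the mean of the 2 genotypes. Krtap1-3 and Dct are lowest in tpa at day 50, Shh changes sides between the days, and Ctss, Ear1 and Rtp4 are lower in every clp array than in any tpa array.

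No gene passed at day 90, and the genes of smallest p there are named as not having passed. Tm6sf1, a membrane protein of lysosomes, had log2 ratios of 0.34 and 0.31 in clp and 1.91 and 1.78 in tpa at day 50, and of 0.45 and 0.29 in clp and 1.79 and 1.70 in tpa at day 90. The values were near constant within a treatment, and the difference was -1.38 ± 0.14 at day 90 (adjusted p = 0.135) and -1.45 ± 0.10 in the mean (adjusted p = 0.00386), with another probe at -0.74 in the mean. Aadacl2fm2, an arylacetamide deacetylase-like gene, differed by -1.47 ± 0.14 at day 90, and Gzmc by -1.70 ± 0.18. Among the genes of smallest p, the largest values in the other direction were C7, a terminal complement component (1.58 ± 0.27), Mreg, a melanosome transport gene (1.46 ± 0.25), and Dhx9, an RNA helicase (1.19 ± 0.17). These genes had adjusted p of 0.135 to 0.174 at day 90. The Dhx9 probe was well above background on only 1 clp and 1 tpa array of day 90, so its value lies near the floor.

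Apart from Dct, no gene's difference between the days passed. The next in the direction of a higher day 50 value were Krt35, Krt25, Shh and Dlx1 (each adjusted p = 0.0515). In the other direction H2-Q10, a class I molecule, had a difference between the days of -2.32 and the adipogenesis gene Adig -2.05 (each adjusted p = 0.0531), followed by Olfm1 (-1.31), Csprs (-1.71) and Slco2a1 (-1.28). H2-Q10 had log2 ratios of -1.03 and -1.07 in clp and 0.73 and 0.50 in tpa at day 50, and of 0.27 and 0.13 in clp and -0.07 and -0.85 in tpa at day 90. It was lower in clp at day 50 and higher at day 90.

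Among the 13 tested genes listed for embryonic stem cells 2 were called higher and 1 lower in the mean, and none define the cell type alone: Dppa4 (0.94 ± 0.15), Tfcp2l1 (0.50 ± 0.11) and Klf2 (-1.15 ± 0.24), the last also an endothelial factor. Over all features 6.71% were called higher and 7.18% lower. Of 17 clock genes Nfil3 was called higher (1.08 ± 0.24, adjusted p = 0.03) and none lower. That count is near the share over all features, and 0 were called higher with genotype left out of the fit. The anion exchanger Slc4a1 was the called member of 5 erythroid genes (1.35 ± 0.24, adjusted p = 0.015).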

How the data were processed

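The deposited scanner files hold Cy5 and Cy3 signals as intensity, and per the file headers the authors' values came from Agilent Feature Extraction 10.7.3.1 (10.0 in the submitters' processing notes) with a probe annotation on mm9. The deposited table of values gives Cy5 over Cy3 as a log10 ratio, equal to that in the scanner files (largest difference 0 over 532764 spots). Dye swaps and a wt reference, named in the series' own text, are not what the array labels show, and each array was read by its labels. From the median foreground and background signals, log2 ratios were computed in R 4.3.3 with limma 3.58.1: normexp background correction (offset 50), loess within arrays, control spots at weight 0, and outlier-marked spots left out. A probe was tested if Cy5 was well above background on 2 or more of the 8 arrays (30538 of 39429 probes; 667 left out for an outlier mark). Probes were named through accessions in RefSeq (22399 named), and the brightest probe stood for a gene, giving 25332 features, 17193 with a symbol. The model held genotype and 4 treatment-by-day conditions (3 residual degrees of freedom, eBayes with trend, Benjamini-Hochberg adjustment, threshold 0.05). Errors are standard errors from that fit. The number of arrays limits the precision.

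The contrast, the 35 gene lists and the tests were chosen with earlier results of these data known. Named genes are the 10 largest called differences in each direction with 1 sign in all pairs (5 at each day and for treatment by day, with the smallest p standing in where none passed), Eng, and called or smallest-p members of each list; Tnc and other genes given as not called or as saturated, and Krtap10-10, were added after their values were seen. The fitting was tested on simulated data. Alternatives were other arrays or covariates in the fit, normalization, channels, offset, filters, probe choice and leaving out each array. Some genes that the rule names are not reported here.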

Additional observations from a re-analysis of the deposited data

Results flagged for a closer look

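The difference between the days in Dct, 3.61, was the single one that passed the test over all features (limma adjusted p = 0.0179). The Dct spot was saturated on 2 clp arrays and 1 tpa array, so this value is not exact. Other genes were lower or higher in clp in both pairs of day 50 and the reverse in both pairs of day 90, and the test of the difference between the days did not pass for them: Shh 2.40 and Dlx1 1.61 (adjusted p = 0.0515 each), H2-Q10 -2.32 and Adig -2.05 (adjusted p = 0.0531 each) and Slco2a1 -1.28 (adjusted p = 0.0678). Shh and Dlx1 were not well above background on either tpa array of day 50, so their tpa levels there have only a bound. The median of the dermal papilla list was 0.23 and 0.20 in the pairs of day 50 and -0.19 and -0.10 in those of day 90. That difference of 0.36 was not tested. For Aadacl2fm2 the wt pair of day 50, at -1.90, lay far from the other 3 pairs, and the gap took 0.85 of the range. The reference channel of clp wt at day 90 had a median correlation of 0.9735 with the others, a gap of 0.962 of the range over the 4 clp arrays. An array outside the contrast, wt at day 50 with no named treatment, was as low (0.9733). Chance marks about 1 in 20 groups by such gaps, and 78 groups were examined.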

How the results depend on the processing

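Counts of calls are given for the mean and then day 50. They were 1946 and 2458 with all 12 arrays in the fit, 2449 and 2644 without genotype, 2032 and 2249 from the authors' processed signals. Leaving out 1 array gave 915 to 5523 and 670 to 5591, 0 to 6 at day 90, and 0 to 2141 for treatment by day. At day 90 median centring gave 14 calls. For treatment by day it gave 329, offset 16 gave 552, both channels above background gave 47, and 12 arrays, no genotype and processed signals gave 0. The replicate number is 1 for every sample, so the genotype-by-day pairs served as the replicate block, and that pairing gave 0 calls in the mean. Among medians with 1 sign in all pairs of their contrast, those that changed sign lay at day 90: melanocyte -0.12, adipocyte 0.00735 and Wnt -0.0378 after median centring, TGF-beta and BMP -0.0205 from Cy5 alone, hair shaft keratins -0.168, inner root sheath -0.284, melanocyte -0.122 and keratin-associated proteins -0.213 without clp wt at day 90, and hair shaft keratins -0.133, dermal papilla 0.041 and keratin-associated proteins -0.345 without tpa Eng+/- at day 90. Medians near 0 or of mixed pairs changed sign too, in the mean dermal papilla (-0.00274 to 0.148), basal epidermis (-0.151 to 0.18), circadian clock (-0.0957 to 0.189) and erythroid (-0.184 to 0.29). At day 50 embryonic stem cell (-0.0577 to 0.16), circadian clock and erythroid did so, as did hair matrix regulators (-0.209 to 0.705), skeletal muscle (-0.838 to 0.0837) and 6 other lists at day 90. Leaving out 1 array took day 90 medians from -0.168 to 1.5 (hair shaft keratins), -0.284 to 1.01 (inner root sheath), -0.345 to 1.37 (keratin-associated proteins), -0.235 to 0.041 (dermal papilla) and -0.122 to 0.243 (melanocyte). In the mean, C7 was -0.06 from processed signals and Dhx9 -0.03 from Cy5 alone. The cause was not tested. Of 5825 values of named genes under other settings, 982 lost the call. Another 4805 kept a call and its direction, or belonged to genes not called in the main fit, whose sign could change. Of 1820 list medians, 1712 moved by less than the spread. Saturated spots limit the hair genes, and 1 array per combination limits every p.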
